A study of Mus musculus with 12 samples.

Results

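Potassium channel genes of the mouse thoracic aorta are described here across nicotine vapor exposure and alpha7 nicotinic receptor genotype. The members are the genes of the count table whose symbol begins with Kcn, a subfamily letter and a number, together with Abcc8 and Abcc9, the sulfonylurea receptor subunits of ATP-sensitive channels. They came to 98 of 27933 genes in the table. Of these, 95 code for channel pores or their partner subunits and 3 are noncoding transcripts (Kcnq1ot1, Kcnmb4os1 and Kcnmb4os2). Whether a gene is a member was fixed by its symbol and not by any measured value.

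The 12 libraries fall into 4 groups of 3. WT nicotine libraries (numbers 6, 11 and 12) come from wild-type C57BL/6J mice that breathed nicotine vapor, and WT air libraries (8, 9 and 10) from wild-type mice in room air. KO nicotine libraries (3, 4 and 5) and KO air libraries (1, 2 and 7) come from mice of the same strain labelled as alpha7-nAChR knockouts, under the same exposures. All mice began exposure at 5 months of age, stayed in it for 12 weeks and were 8 months old at the end. The aortas had been cleaned of fat before freezing, and the measurement is of whole-vessel RNA. How the knockout was made, and whether each library is a separate mouse, is not given in the sources used here.

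Potassium channels let potassium leave the cell and so hold the membrane of vascular smooth muscle negative, which keeps voltage-gated calcium channels closed and the muscle relaxed. Large-conductance calcium-activated (BK) channels answer local calcium release, voltage-gated (Kv) channels answer depolarisation, ATP-sensitive channels answer metabolic state, inward rectifiers answer external potassium, and tandem-pore (K2P) channels carry background current. Small- and intermediate-conductance calcium-activated channels are known above all from the endothelium, whose hyperpolarisation passes to the muscle.

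What unites the pore-forming members is a short selectivity filter. Its coding sequence is shown because the patterns below match most pore members and no partner subunit, without use of any measured value. The codon patterns ACNNTNGGNTNNGGN, TCNNTNGGNTNNGGN and AGNNTNGGNTNNGGN were searched in frame on the coding strand of the longest coding transcript of each gene in GENCODE M21. The patterns differ in their opening letters and cannot match at the same place. Of 21875 coding genes in that annotation, 2.08% hold at least 1 match. Each of the 30 voltage-gated pores, 15 inward rectifier pores, 10 electrically silent voltage-gated subunits and 4 large-conductance or sodium-activated pores holds exactly 1. Among the 14 K2P genes, 11 hold 2 matches, since each subunit carries a pair of pore loops, 1 holds a single match and 2 hold none. Of the 4 small- and intermediate-conductance pores, 3 hold 1 match and 1 holds 2. None of the 4 BK beta subunits, 12 auxiliary subunits of voltage-gated channels or 2 sulfonylurea receptors holds any. The matches of members described below are written 5′ to 3′ with the matched 15 bases in capitals and 6 bases on each side in lower case:
Kcnj8, ATP-sensitive inward rectifier pore: caagtgACCATTGGGTTTGGAgggaga
Kcnma1, BK pore: atgtctACAGTGGGTTATGGGgacgtt
Kcnd3, voltage-gated pore: atgactACACTGGGATATGGAgacatg
Kcnh2, voltage-gated pore: ctcaccAGCGTGGGCTTTGGCaatgtc
Kcnk3, first pore loop: atcaccACCATCGGCTATGGTcatgcg
Kcnk3, second pore loop: ctcaccACCATCGGCTTCGGCgactat
Kcnk5, first pore loop: atcaccACCATCGGTTATGGCaatgtg
Kcnk5, second pore loop: atctccACCATTGGCTTTGGGgacttt
Several members are also neighbours on their chromosome, among them Kcnj8 and Abcc9 on chromosome 6 and Kcnj11 and Abcc8 on chromosome 7, the pore and receptor genes of the same channel type.

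The libraries held 10240031 to 12628323 counts, and the members took 0.141 to 0.199% of them. Chrna7, which encodes the alpha7 receptor, had 8 to 28 counts in the 6 libraries labelled KO and 9 to 37 in the 6 WT libraries, so its counts do not separate the genotypes. The deleted stretch of that gene is not given, so these counts cannot check the label, and KO below stands for the label. All 10 smooth muscle markers were counted in every library, which fits the labelled tissue, and so were all 8 adipocyte markers and at least some markers of every other cell type examined. Libraries differed in tissue content within groups. WT air 8 had a smooth muscle marker sum of 33665 CPM (TMM-scaled counts per 1000000 reads) and a brown adipocyte sum of 1832, whereas WT air 9 had 50245 and 373 and WT air 10 had 45076 and 740. In the KO nicotine group, library 5 had a smooth muscle sum of 40586 against 24771 and 27030 in libraries 3 and 4, and library 3 had a skeletal muscle sum of 202 where the other 11 libraries had 9.23 to 45.7. In whole-vessel RNA, fewer cells of a type and less RNA per cell cannot be told apart.

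The most abundant member was Abcc9, the sulfonylurea receptor of vascular ATP-sensitive channels, with a mean over the 12 libraries of 72.5 CPM per kilobase of exon. Kcnmb1, the beta subunit that raises the calcium sensitivity of smooth muscle BK channels, followed at 39.3 CPM per kilobase. Kcnab1, a cytoplasmic beta subunit of Kv channels, stood at 28.3 and Kcnk3, an acid-sensitive K2P pore, at 24. Kcnj8, the pore partner of Abcc9, stood at 20.2 CPM per kilobase. Abcc9 was above Kcnmb1, Kcnmb1 above Kcnab1, and Kcnj8 above Kcnh2 in 12 of 12 libraries. Kcnab1 exceeded Kcnk3 in 6 of 12 libraries and Kcnk3 exceeded Kcnj8 in 7 of 12, so the order of these neighbours is not settled beyond their spread.

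Further levels per kilobase of exon were 13.9 for Kcnh2, 11.1 for Kcnma1, the BK pore, and 9.54 for Kcne4, an auxiliary subunit of Kv channels. Kcnc4, a fast Kv pore, had 6.78. Lower levels were those of Kcns3 at 6.13, Kcnj15 at 5.86, Kcnd3 at 5.21 and Kcnt2 at 5.16. Kcns3 is an electrically silent Kv subunit. The endothelial calcium-activated pores Kcnn3 and Kcnn4 had 3.88 and 2.26. Kcna5, a Kv pore widely described in arteries, was further down at 1.71 CPM per kilobase. Kcnj11 and Abcc8, the pore and receptor genes of the pancreatic ATP-sensitive channel, were scarce in this tissue, at 0.381 and 0.123 CPM per kilobase. Abcc8 averaged 0.602 CPM and did not pass the filter on low counts.

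**Figure D1:**
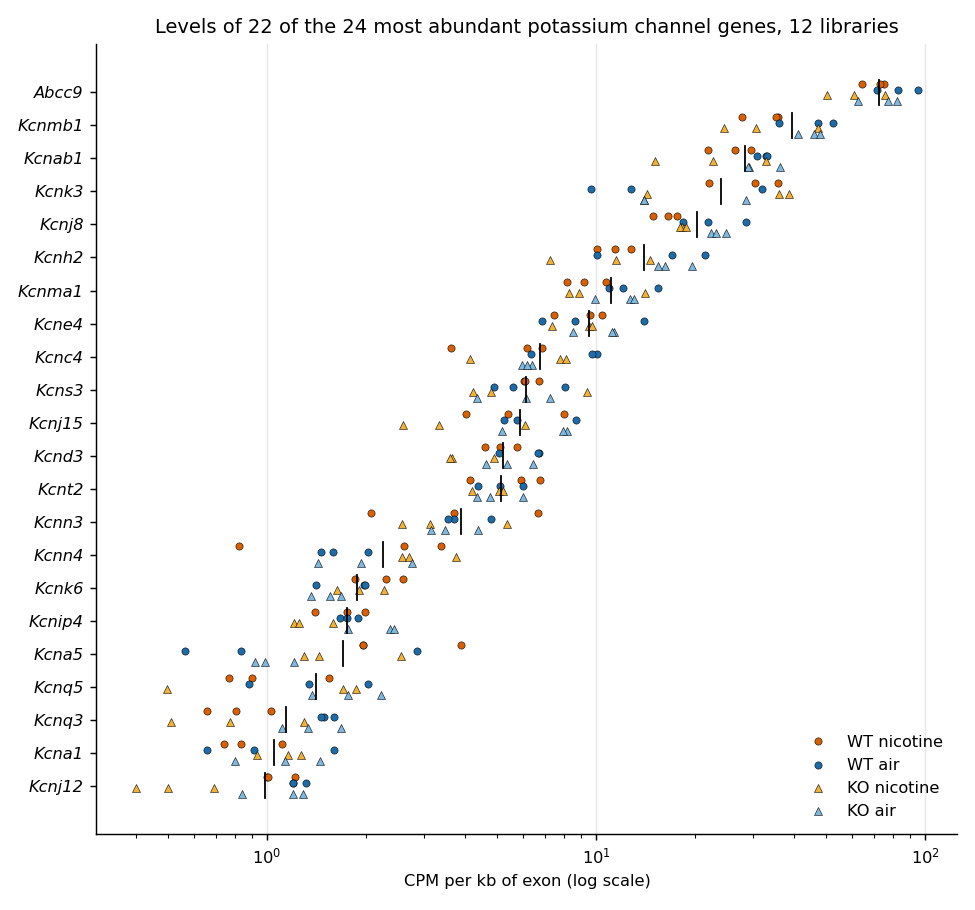
Level of 22 of the 24 most abundant potassium channel genes in CPM per kilobase of exon (log axis), with 1 point per library and a black bar at the mean of the 12 libraries. Abcc9 leads with a mean of 72.5, and the points of Kcnk3 and Kcna5 are spread more widely than those of their neighbours in the order.

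A few genes carried most of the signal. Abcc9 alone made up 35.7% of the CPM over all members and the 5 highest members 64.6%, whereas 19 members averaged at least 10 CPM and 42 at least 1 CPM. Exon lengths came from GENCODE M21, an annotation of a later genome build than that of the counts, and a level per kilobase is therefore approximate. On plain CPM, 7 of the first 10 genes were the same. After the filter, 49 members were tested and 49 were not. Those left out had at most 96 counts summed over all libraries, with a median of 19, and 1 of them (Kcnk16) was never counted. Among the untested members were Kcnmb2 and Kcnmb4, further BK beta subunits, which averaged 0.0707 and 0.104 CPM. Kcns1, a silent Kv subunit, averaged 0.0365 CPM.

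Nicotine vapor was compared with room air in each genotype to ask which channel genes differ after long exposure. No member passed an adjusted p of 0.05 (edgeR quasi-likelihood test, Benjamini-Hochberg over 14621 genes), either in WT, in KO or averaged over both genotypes. Among all genes tested, 0.0205% passed in WT, 0% in KO and 0% for the average. The lowest adjusted p of a member by edgeR was 0.272 in WT, 0.878 in KO and 0.301 for the average. Limma voom called no member in these comparisons, and DESeq2 called none in WT or KO and 2 for the average (Kcnj8 and Kcnk5). At an unadjusted p under 0.05, 9 of 49 members differed in WT (18.4%, where 9.84% of all genes did), 3 with higher and 6 with lower values under nicotine. In KO the count was 8 (16.3%, where 4.58% of all genes did), 1 higher and 7 lower. For the average it was 13 (26.5%, where 10.9% of all genes did), 2 higher (Kcnk5 and Kcna5) and 11 lower (among them Kcnj8, Kcnq3, Kcnd3, Kcnmb1, Kcnj12, Kcnh2, Kcnj11, Kcnab1, Kcnip4 and Kcnma1). By direction, 5.43% of all genes were higher and 4.41% lower in WT, 2.48% higher and 2.10% lower in KO, and 5.62% higher and 5.33% lower for the average.

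These unadjusted counts depended on single libraries, as did the shares of all genes. Without WT air 10 the count in WT was 3 (6.29% of all genes), and without WT air 8 it was 14 (16.2% of all genes). It was 4 without WT nicotine 6 (7.25% of all genes) and 5 without WT air 9 (5.43% of all genes). In KO it was 2 without KO nicotine 3 (2.13% of all genes) and 14 without KO nicotine 5 (11.4% of all genes). It was 4 without KO nicotine 4, KO air 1 or KO air 7 (4.69%, 3.4% and 2.52% of all genes). The averaged count was lowest at 8 without WT air 9 (6.62% of all genes). It was highest at 15 without WT air 8 or KO nicotine 5 (18.1% and 16.1% of all genes). With the smooth muscle marker score of each library as a covariate it was 2, where 4.33% of all genes passed.

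The median log2 fold change of the tested members lay near that of all genes. It was −0.09 in WT, where all genes had a median of −0.00466, −0.08 in KO (all genes 0.00954) and −0.06 for the average (all genes 0.00808). The sign was the same in both genotypes for 35 of 49 members (71.4%), 20 below and 15 above 0, where 59.8% of all genes had the same sign. In WT, the 3 nicotine libraries lay outside the range of the 3 air libraries for 12 members (24.5%), and in KO for 7 (14.3%). The shares of all genes were 13.2% and 10.7%. Kcnj8 was the only member lower without overlap in both, as were 0.486% of all genes, and no member was higher without overlap in both, where 0.533% of all genes were.

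**Figure D2:**
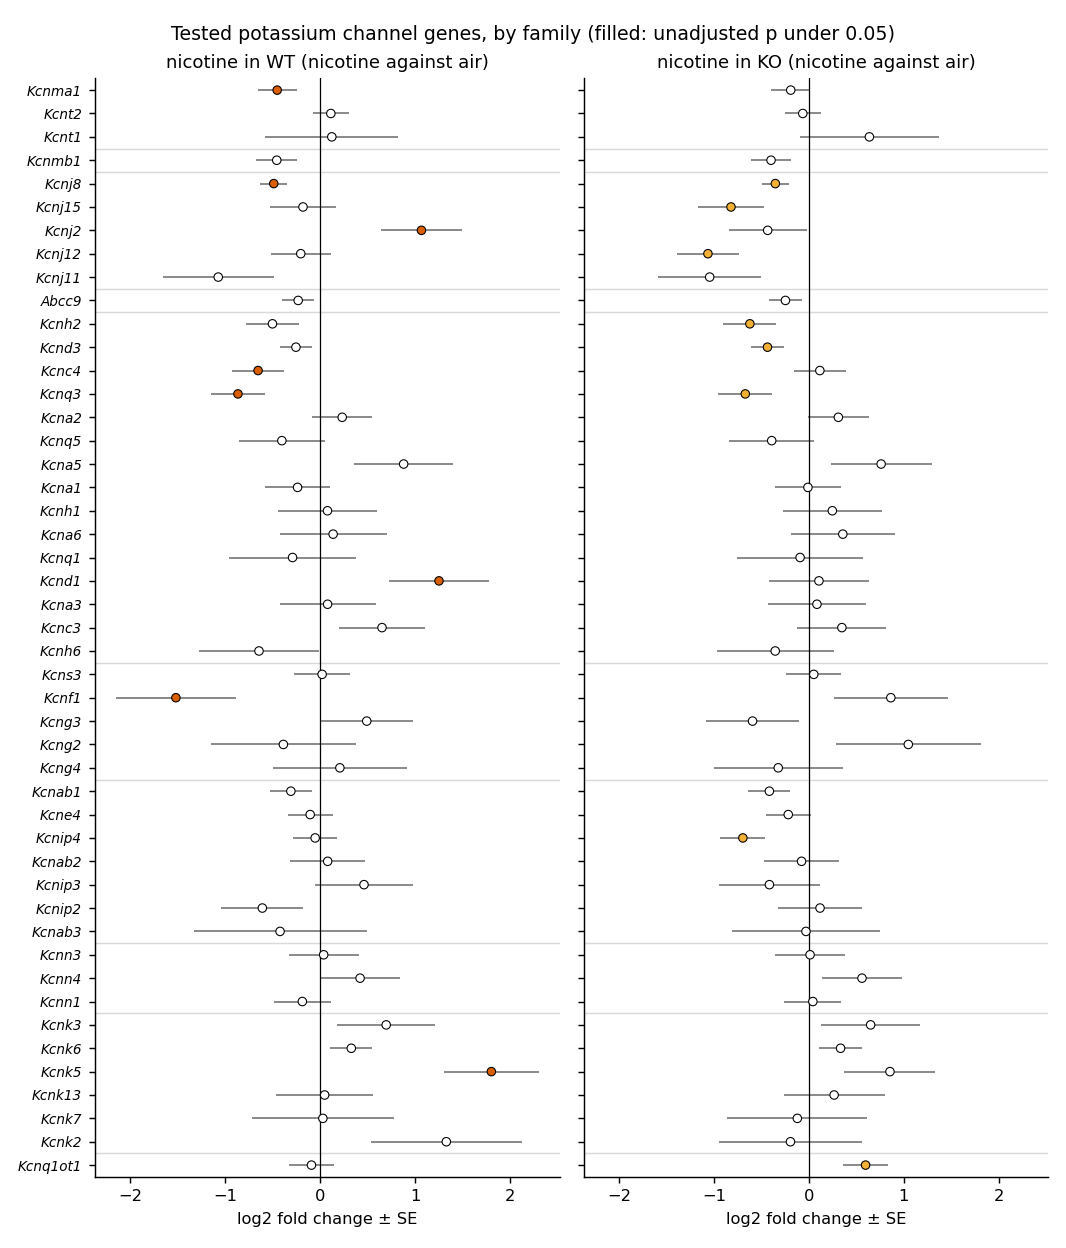
Log2 fold change (nicotine over air) ± standard error of 47 of the 49 tested members in WT (left) and KO (right), grouped by channel family and ordered by mean CPM within a family, the highest on top. Filled points mark an unadjusted p under 0.05, and no member passed an adjusted p of 0.05. Kcnj8 and Kcnq3 are filled to the left of 0 in both panels.

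Kcnj8, whose product forms the pore of the vascular ATP-sensitive channel, had the smallest p of the members for nicotine averaged over genotypes. Kcnj8 stood at 42.1, 44.8 and 38 CPM in the WT nicotine libraries, against 46.8, 72.5 and 55.7 CPM in WT air. In the KO nicotine libraries it stood at 46.4, 46.0 and 47.7 CPM, against 63.2, 57.0 and 58.8 CPM in KO air. Every nicotine library was thus below every air library of its own genotype, and the highest nicotine value (KO nicotine 5) was just above the lowest air value (WT air 8). The log2 fold change of Kcnj8 was −0.49 ± 0.14 (SE) in WT and −0.35 ± 0.14 in KO. The average was −0.42 ± 0.10, a fold of 0.747, with an unadjusted p of 0.000964 and an adjusted p of 0.301 in the edgeR fit. DESeq2 on the same design called it lower, at −0.41 with an adjusted p of 0.0427. The edgeR fit without WT air 8 also called it, at −0.47 with an adjusted p of 0.0484. Over the 20 alternative fits by edgeR, DESeq2 or limma voom, the average of Kcnj8 ran from −0.47 to −0.27. Its adjusted p in these fits ran from 0.0427 to 0.986.

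Kcnj8 is expressed by smooth muscle and pericytes, and the smooth muscle marker sums also had lower medians under nicotine. The sum ran from 30760 to 35340 CPM in WT nicotine (median 31218) against 33665 to 50245 in WT air (median 45076). It ran from 24771 to 40586 CPM in KO nicotine (median 27030) against 34478 to 41766 in KO air (median 41330), so the ranges overlap. Markers of other cell types also differed with nicotine. The macrophage sum ran from 397 to 550 CPM in WT nicotine against 254 to 272 in WT air, and the fibroblast sum from 6174 to 7223 CPM in WT nicotine against 4900 to 6084 in WT air, both without overlap. In KO both overlapped, at 291 to 553 CPM in nicotine against 255 to 408 in air for macrophages and 5113 to 5790 against 5008 to 6562 for fibroblasts. All 7 macrophage and all 8 fibroblast markers were counted in every library. Taken singly, the fibroblast markers Pdgfra, Lum, Col1a1, Pi16 and Serpinf1 overlapped between the WT groups, as did the macrophage marker Adgre1. The adipocyte sum ran from 2621 to 3010 CPM in WT nicotine against 697 to 3101 in WT air. In KO it ran from 1856 to 5049 CPM in nicotine against 1632 to 3403 in air. With the smooth muscle score as a covariate the averaged log2 fold change of Kcnj8 was −0.28, with the adipocyte score −0.27 and with the brown adipocyte score −0.35. The part of macrophage and fibroblast content in the Kcnj8 difference was not tested.

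Abcc9, which binds nucleotides and drugs such as potassium channel openers on behalf of this pore, had 539, 628 and 612 CPM in WT nicotine against 598, 797 and 692 in WT air. In KO nicotine it had 422, 509 and 631 CPM against 686, 522 and 646 in KO air. The groups overlapped in both genotypes, and the averaged log2 fold change was −0.24 ± 0.12 (unadjusted p 0.0672, adjusted p 0.479 by edgeR). The ratio of Abcc9 to Kcnj8 CPM ran from 9.09 to 16.1 over all libraries, with both extremes in nicotine libraries (KO nicotine 3 and WT nicotine 12).

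Kcnj11, the pore of the cardiac and pancreatic form, had 9, 5 and 4 counts in WT nicotine against 12, 16 and 13 in WT air. The KO nicotine libraries had 7, 8 and 20 counts against 13, 33 and 29 in KO air. Its averaged log2 fold change was −1.06 ± 0.40 (unadjusted p 0.0191, adjusted p 0.385 by edgeR). Counts this low leave a wide error, and KO nicotine 5 lay inside the KO air range.

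**Figure D3:**
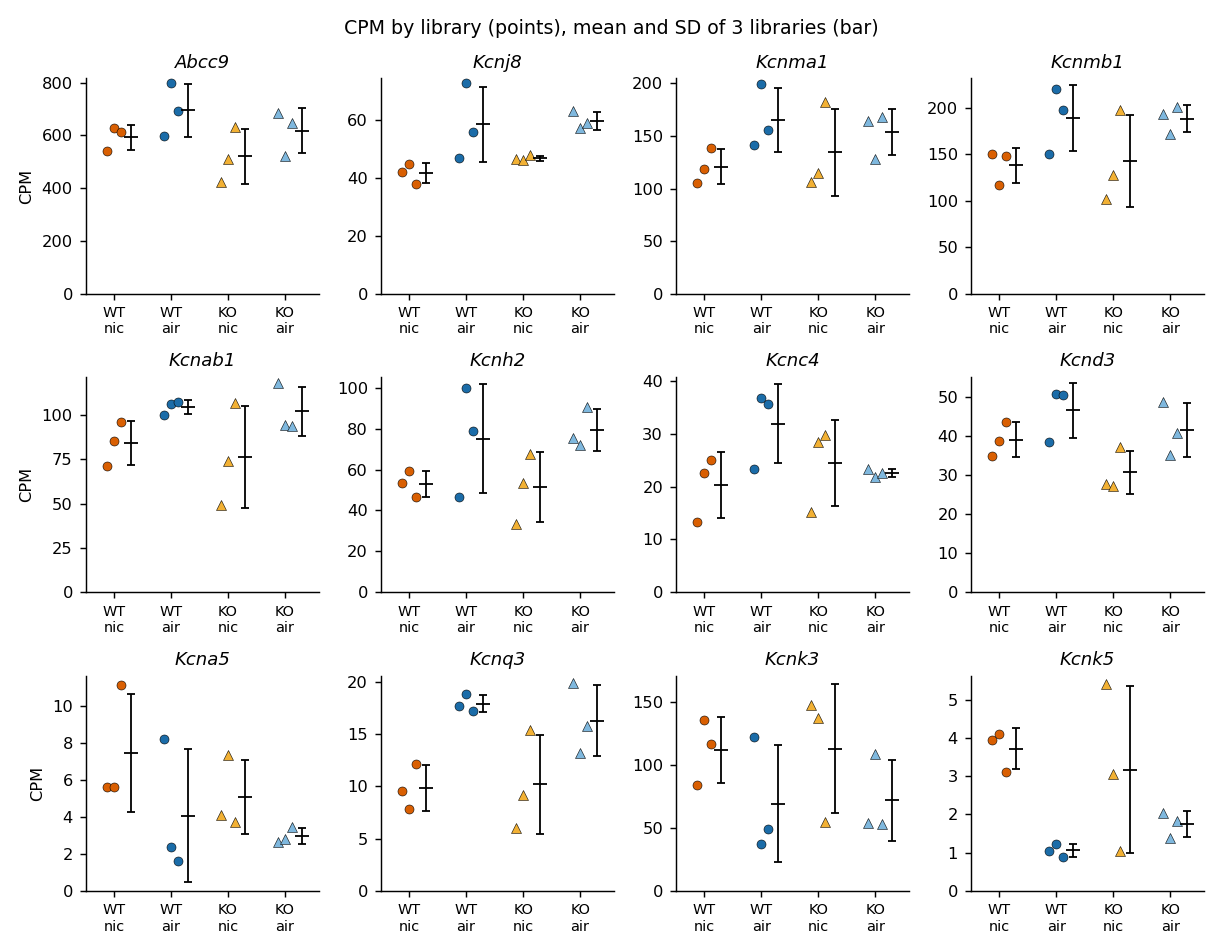
CPM of 12 members in each library (points), with the mean and SD of the 3 libraries of each group (bars), from WT nicotine on the left to KO air on the right in each panel. Kcnj8, Kcnma1, Kcnmb1, Kcnab1, Kcnq3 and Kcnk5 separate nicotine from air in WT, and Kcnj8, Kcnh2 and Kcna5 do so in KO. Kcnk5 does not separate them in KO, where its nicotine libraries run from 1.05 to 5.40 CPM.

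Both BK channel genes had lower averaged values under nicotine, as the smooth muscle marker sums given above had lower medians. Kcnma1 had 105, 119 and 139 CPM in WT nicotine against 141, 199 and 156 in WT air. The KO nicotine values were 107, 114 and 182 CPM against 164, 129 and 168 in KO air. Nicotine libraries were all below air libraries in WT but not in KO, where library 5 was the highest of the 6. The averaged log2 fold change was −0.32 ± 0.14 (unadjusted p 0.0440, adjusted p 0.445 by edgeR).

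Kcnmb1 had 150, 117 and 148 CPM in WT nicotine against 150, 220 and 197 in WT air, where the lowest air library was just above the highest nicotine library. Under nicotine the KO libraries had 102, 128 and 198 CPM against 193, 172 and 201 in KO air. The averaged log2 fold change was −0.43 ± 0.15 (unadjusted p 0.0147, adjusted p 0.379 by edgeR). With the smooth muscle score as a covariate the averages were −0.04 for Kcnmb1 and 0.05 for Kcnma1. Beta and pore genes kept close to each other, with a ratio of Kcnmb1 to Kcnma1 CPM of 0.959 to 1.42 over the 12 libraries. Kcnt2, a sodium-activated pore related to BK, had averages of 32.9 ± 7.86 CPM in WT nicotine and 30.4 ± 4.76 in WT air (SD, n = 3 each), a difference smaller than either SD.

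**Figure D4:**
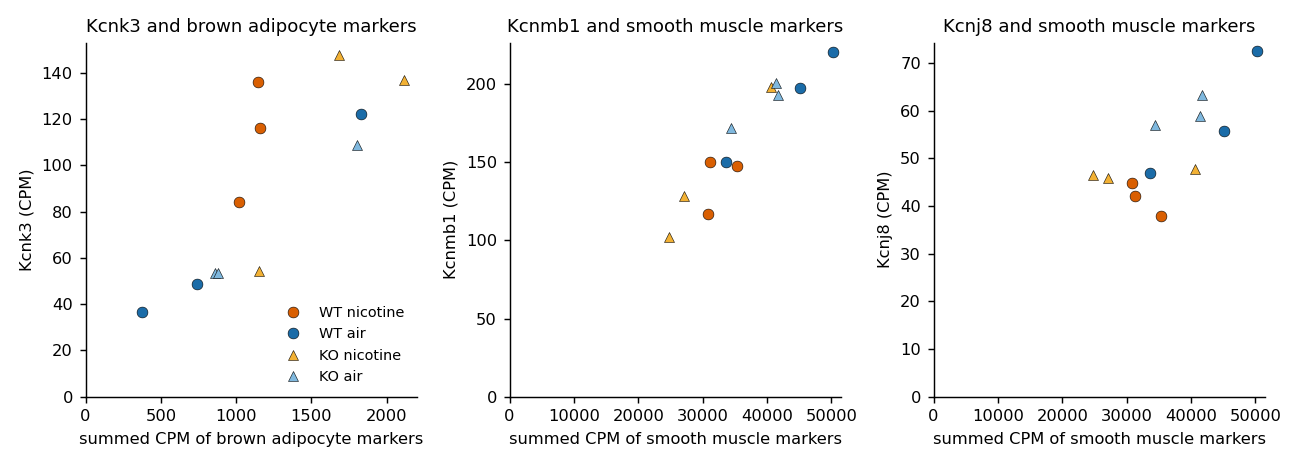
CPM of Kcnk3 against the summed CPM of 7 brown adipocyte markers (left), and of Kcnmb1 (middle) and Kcnj8 (right) against the summed CPM of 10 smooth muscle markers, with 1 point per library. Within KO nicotine, Kcnmb1 runs from 102 to 198 CPM and Kcnj8 from 46.0 to 47.7 CPM, over smooth muscle sums of 24771 to 40586 CPM. In both air groups Kcnj8 rises with the sum, in WT air from 46.8 CPM at 33665 to 72.5 CPM at 50245. In WT nicotine the lowest Kcnj8 value is at the highest sum.

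Voltage-gated pores differed among themselves: 10 of 17 tested had a lower and 7 a higher averaged value under nicotine. Their median log2 fold change was −0.15, and 5 had an unadjusted p under 0.05 by edgeR. Of all genes tested, 51.4% had a higher averaged value and 10.9% an unadjusted p under 0.05. Kcnq3, an M-current pore best known from neurons, had 9.54, 7.80 and 12.2 CPM in WT nicotine against 17.7, 18.9 and 17.3 in WT air. In KO nicotine it had 6.05, 9.15 and 15.4 CPM against 19.9, 13.2 and 15.8 in KO air. The WT groups were well apart and the KO groups overlapped through KO nicotine 5. The averaged log2 fold change of Kcnq3 was −0.77 ± 0.20 (unadjusted p 0.00208, adjusted p 0.311 by edgeR), and it was −0.38 with the smooth muscle score as a covariate. In the authors' deposited table for WT, Kcnq3 had an adjusted p of 0.0523.

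Kcne4 averaged 24.3 ± 4.06 CPM in WT nicotine and 26.1 ± 9.83 in WT air, and 23.6 ± 3.52 in KO nicotine and 27.5 ± 4.24 in KO air (SD, n = 3 each), differences within the spread of the libraries. Kcnq5, another M-current pore, averaged 7.48 ± 2.89 CPM in WT nicotine and 9.90 ± 4.02 in WT air.

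Kcnh2, a pore that repolarises the human heart, had 53.2, 59.4 and 46.8 CPM in WT nicotine against 46.6, 99.8 and 79.1 in WT air. The KO nicotine values were 33.6, 53.3 and 67.8 CPM, below all of 75.5, 71.9 and 90.9 in KO air. The averaged log2 fold change of Kcnh2 was −0.56 ± 0.20 (adjusted p 0.381 by edgeR) and −0.13 with the smooth muscle score as a covariate. Kcnd3, an A-type pore, averaged 39.2 ± 4.44 CPM in WT nicotine and 46.7 ± 7.09 in WT air, and 30.8 ± 5.54 in KO nicotine and 41.7 ± 6.83 in KO air (SD, n = 3 each). Its average was −0.35 ± 0.12 (adjusted p 0.367 by edgeR), and −0.05 with the smooth muscle score. The ranges of Kcnd3 overlapped in both genotypes.

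Kcna5 was the one voltage-gated pore with a higher average at an unadjusted p under 0.05. It had 5.61, 5.62 and 11.1 CPM in WT nicotine against 8.18, 2.39 and 1.61 in WT air. Under nicotine the KO libraries had 4.12, 7.34 and 3.72 CPM, all above 2.64, 2.82 and 3.47 in KO air. The averaged log2 fold change was 0.82 ± 0.37 (unadjusted p 0.0459, adjusted p 0.450 by edgeR) and 1.34 without WT air 8. It was 0.62 without WT nicotine 12, 0.37 with the adipocyte score and 0.42 with the smooth muscle score as a covariate. Kcnab1, which associates with Kv pores of this family, had a lower value under nicotine, with an average of −0.36 ± 0.16 (adjusted p 0.429 by edgeR). The ratio of Kcnab1 to Kcna5 CPM varied from 8.65 in WT nicotine 12 to 66.4 in WT air 10.

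Kcna2, a Kv pore of neurons and some arteries, averaged 12.2 ± 3.75 CPM in WT nicotine and 10.4 ± 4.77 in WT air, a difference within the spread of the libraries. Kcnc4 averaged 20.3 ± 6.21 CPM in WT nicotine and 32.0 ± 7.53 in WT air (log2 fold change −0.65 ± 0.28, adjusted p 0.472 by edgeR). In KO it averaged 24.5 ± 8.07 CPM in nicotine and 22.6 ± 0.75 in air, a log2 fold change of 0.12. Of the calcium-sensing Kv partners, Kcnip4 averaged 4.36 ± 0.668 CPM in KO nicotine and 7.07 ± 1.19 in KO air without overlap (−0.70 ± 0.24, adjusted p 0.878 by edgeR), and 5.52 ± 0.939 in WT nicotine and 5.71 ± 0.355 in WT air. Kcnab2, another Kv beta subunit, averaged between 3.47 and 3.93 CPM in all 4 groups.

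Of the 6 tested K2P genes, 5 had an averaged log2 fold change above 0 under nicotine, as had 51.4% of all genes tested. The counts were 6 in WT (49.4% of all genes) and 4 in KO (51.5% of all genes), and the median of the 6 averaged values was 0.45. At an unadjusted p under 0.05 by edgeR, 1 of the 6 differed for the average, where 10.9% of all genes did. That gene was Kcnk5, an alkaline-activated background pore known from kidney and other epithelia. Kcnk5 had 3.93, 4.11 and 3.10 CPM in WT nicotine against 1.04, 1.24 and 0.887 in WT air, which corresponds to 40, 49 and 38 counts against 12, 15 and 11. In KO nicotine it had 5.40, 3.05 and 1.05 CPM against 2.04, 1.37 and 1.82 in KO air. The WT groups were far apart, while KO nicotine 5 was the lowest of the 6 KO libraries.

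The log2 fold change of Kcnk5 was 1.80 ± 0.50 in WT (a fold of 3.49, adjusted p 0.272 by edgeR), 0.85 ± 0.48 in KO and 1.33 ± 0.34 for the average (adjusted p 0.306). The difference between genotypes in this effect was tested as an interaction and had an adjusted p of 0.999. In the authors' deposited table for WT, Kcnk5 had a log2 fold change of 1.81 and an adjusted p of 0.0180, and it was the only one of 72 listed members past 0.05 there. None of 72 passed in the authors' deposited table for KO. DESeq2 on all 12 libraries called the averaged difference higher, at 1.34 with an adjusted p of 0.0401. Over the 20 alternative fits by edgeR, DESeq2 or limma voom, the average of Kcnk5 ran from 0.63 to 1.55. Its adjusted p in these fits ran from 0.0401 to 0.986.

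KO nicotine 3 held both the highest Kcnk5 value and the highest skeletal muscle marker sum. Without that library the log2 fold change of Kcnk5 in KO was 0.23. With the skeletal muscle score as a covariate it was −0.11 in KO and the average was 0.63. With the smooth muscle score the average was 0.67. In WT it was 1.21 with the smooth muscle score and 1.37 with the skeletal muscle score. It ran from 1.70 to 1.93 in WT over the 6 fits that each left out 1 library, and the skeletal muscle sum was 11 to 45.7 CPM in WT nicotine against 9.83 to 14.9 in WT air. In KO nicotine that sum was 9.23 to 202 CPM, against 10.6 to 16.2 in KO air. At most 1 of the 9 skeletal muscle markers was at 0 in any library. Within KO nicotine Kcnk5 rose with the sum, from 1.05 CPM in library 5 to 5.40 in library 3. Within WT nicotine it did not. WT nicotine 6 had 3.93 CPM of Kcnk5 at the lowest sum of that group, which lay inside the WT air range. WT nicotine 12 had 3.10 CPM at the highest. The part of skeletal muscle content in the Kcnk5 difference was not tested.

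Kcnk3, whose human counterpart is mutated in some families with pulmonary arterial hypertension, differed widely among libraries of the same group. It had 84.0, 136 and 116 CPM in WT nicotine against 122, 36.8 and 48.7 in WT air. The KO nicotine libraries had 147, 137 and 54.5 CPM against 53.4, 109 and 53.3 in KO air. The groups overlapped in both genotypes, through WT air 8, KO nicotine 5 and KO air 2. All 7 brown adipocyte markers were counted in every library, and their sum ran from 1022 to 1159 CPM in WT nicotine against 373 to 1832 in WT air, and from 1152 to 2115 in KO nicotine against 857 to 1802 in KO air. The air libraries with high Kcnk3 (WT air 8 and KO air 2) had sums of 1832 and 1802 CPM, and the other air libraries 373 to 878. The sums of KO nicotine 5 and WT nicotine 11 were alike, at 1152 and 1145 CPM, while Kcnk3 stood at 54.5 CPM in KO nicotine 5 and 136 in WT nicotine 11. The averaged log2 fold change of Kcnk3 was 0.67 ± 0.37 (adjusted p 0.525 by edgeR), and it was 0.17 with the adipocyte score, 0.54 with the brown adipocyte score and −0.15 with the smooth muscle score as a covariate. Kcnk6, a K2P pore of endosomal membranes and vessels, averaged 9.19 ± 1.53 CPM in WT nicotine and 7.32 ± 1.37 in WT air, and 7.90 ± 1.29 in KO nicotine and 6.27 ± 0.67 in KO air (SD, n = 3 each). Its ranges overlapped in both genotypes, and the average was 0.33 ± 0.16 (adjusted p 0.462 by edgeR).

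The endothelial calcium-activated pores had overlapping nicotine and air libraries in both genotypes. Kcnn3 averaged 12.0 ± 6.76 CPM in WT nicotine and 11.6 ± 1.99 in WT air, and 10.6 ± 4.25 in KO nicotine and 10.6 ± 1.86 in KO air. Kcnn4 averaged 4.62 ± 2.67 CPM in WT nicotine and 3.43 ± 0.608 in WT air, and 6.12 ± 1.29 in KO nicotine and 4.14 ± 1.37 in KO air (SD, n = 3 each).

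Genotype was compared within each exposure, averaged over both, and as an interaction with nicotine, to ask whether these genes or their response differ with the KO label. No member passed an adjusted p of 0.05 by edgeR in any of these 4 comparisons, where 0% of all genes passed in air, 0.00684% under nicotine, 0% for the average and 0% for the interaction. DESeq2 and limma voom called no member in them either. At an unadjusted p under 0.05 there was 1 member in air (2.04%, against 4.36% of all genes), 2 under nicotine (4.08%, against 8.34%), 3 for the average (6.12%, against 8.41%) and 2 for the interaction (4.08%, against 4.43%). These shares rest on 1 to 3 members each and are not read as a difference from all genes. Groups did not overlap for 3 members in air (6.12%, against 11.8% of all genes) and for 4 under nicotine (8.16%, against 11.4%). In air these were Kcnj2 and Kcnk5, higher in KO, and Kcnip2, lower in KO. Under nicotine they were Kcnab3, Kcnj8 and Kcnq1ot1, higher in KO, and Kcnj12, lower in KO. For the average, Kcnd3 was lower in KO, with a log2 fold change of −0.26. The median log2 fold change over members was between 0.00 and 0.02 in all 4 comparisons. Leaving out single libraries moved the unadjusted count for the average between 1 and 5, the highest without WT air 8. The share of all genes moved too, from 5.76% without KO air 2 to 10.7% without KO nicotine 5. Without WT air 8 that share was also above the 8.41% of the full fit, so the higher count there is not particular to the members. With the smooth muscle marker score as a covariate the count for the average was 7, where 7.24% of all genes passed. That score gave 5 members under nicotine (9.02% of all genes), 5 for the interaction (5.96%) and 1 in air (4.75%). The cause of these higher counts was not tested.

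Inward rectifier genes supplied several of the members with the smallest p. Kcnj2, the classical strong inward rectifier, had 4.34, 3.50 and 4.71 CPM in KO air against 1.83, 1.98 and 1.53 in WT air, with no overlap. The log2 fold change was 1.23 ± 0.42 (adjusted p 0.995 by edgeR). Under nicotine it had 2.20, 2.77 and 4.29 CPM in KO against 6.49, 2.43 and 2.37 in WT. The interaction of Kcnj2 was −1.5 ± 0.59 (adjusted p 0.999) and −0.88 without WT nicotine 6, the library that held its highest value.

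Kcnj12, a second gene of the same strong rectifier family, had 1.10, 1.91 and 1.38 CPM in KO nicotine against 2.75, 3.35 and 2.78 in WT nicotine, again with no overlap. The log2 fold change between these groups was −1.02 ± 0.33 (adjusted p 0.450 by edgeR). In air it had 3.32, 2.31 and 3.55 CPM in KO against 3.31, 3.62 and 3.31 in WT, which overlap. Set against KO air, the KO nicotine libraries were all lower (−1.06 ± 0.33, adjusted p 0.878). This comparison and the preceding one share the KO nicotine libraries. Both values rest on 12 to 20 counts per library in KO nicotine.

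Kcnj11 had the higher value in KO when averaged over exposures, at 0.90 ± 0.40 (adjusted p 0.579 by edgeR). The KO libraries had 0.641, 0.763 and 1.62 CPM under nicotine and 1.11, 2.82 and 2.39 in air. The WT libraries had 0.885, 0.419 and 0.327 CPM under nicotine and 1.04, 1.32 and 1.05 in air. Kcnj15, a further inward rectifier, averaged 23.1 ± 10.6 CPM in KO nicotine and 33.5 ± 11.6 in WT nicotine (SD, n = 3 each). In air it averaged 40.9 ± 9.57 CPM in KO and 37.8 ± 10.8 in WT. The differences between genotypes were smaller than the larger SD of each pair. For nicotine in KO the log2 fold change of Kcnj15 was −0.82 ± 0.35 (unadjusted p 0.0400, adjusted p 0.878 by edgeR), and the ranges overlapped.

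Kcnf1, a silent Kv subunit, had the largest interaction of the tested members at 2.38 ± 0.87 (adjusted p 0.999 by edgeR). It had 2.66, 0.667 and 4.05 CPM in KO nicotine against 2.04, 1.20 and 0.825 in KO air, and 0.689, 0.419 and 1.06 in WT nicotine against 1.39, 2.47 and 2.42 in WT air. Only the WT groups are free of overlap. Kcnd1, an A-type pore, had 4.92, 2.01 and 1.47 CPM in WT nicotine against 0.870, 1.40 and 1.21 in WT air (1.25 ± 0.53, adjusted p 0.463 by edgeR), and the value was 0.60 without WT nicotine 6. In the KO groups Kcnd1 averaged 1.51 ± 0.682 CPM in nicotine and 1.40 ± 0.209 in air.

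Kcnq1ot1, a long noncoding RNA read from the opposite strand of Kcnq1 and known for silencing its imprinted neighbours, had 133, 106 and 106 CPM in KO nicotine against 83.1, 79.5 and 65.6 in KO air (0.60 ± 0.23, adjusted p 0.878 by edgeR). In WT nicotine it had 73.6, 101 and 70.1 CPM against 126, 69.9 and 65.2 in WT air. The KO groups did not overlap and the WT groups did. Whether strand was used in counting is not given, so reads of Kcnq1ot1 and Kcnq1 may not have been told apart where the genes overlap. Kcnq1, a Kv pore, averaged 1.53 ± 0.338 CPM in WT nicotine and 1.88 ± 1.73 in WT air. Kcnab3, a scarce Kv beta subunit, had 0.824, 0.667 and 0.809 CPM in KO nicotine, above 0.295, 0.252 and 0.327 in WT nicotine, with an adjusted p of at least 0.590 in every alternative that tested it.

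**Figure D5:**
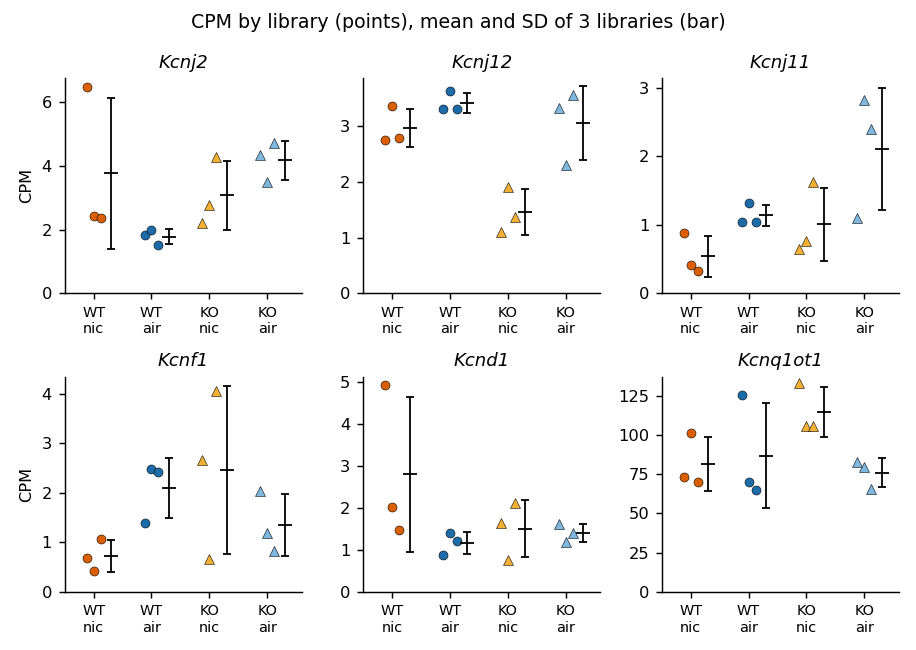
CPM of 6 members in each library (points), with the mean and SD of the 3 libraries of each group (bars). Kcnj12 is lowest in the KO nicotine group at 1.10 to 1.91 CPM, Kcnj2 is lowest in WT air at 1.53 to 1.98 CPM, and the high WT nicotine point of both Kcnj2 and Kcnd1 is library 6.

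The channel genes were measured less precisely than the average gene. The median biological coefficient of variation was 0.317 over the 49 tested members and 0.197 over all genes tested, and 41 members were above 0.197. Among tested members with at least 1 CPM, the largest dispersions were those of Kcnq1, Kcnf1, Kcnh6, Kcna6 and Kcna5. The median standard error of a member's log2 fold change was 0.42 for nicotine in WT and 0.59 for the interaction, against 0.22 and 0.31 over all genes. Kcnj8 was among the more precise members, with a standard error of 0.14 in each genotype.

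Other genes of smooth muscle membrane potential and calcium entry were read beside the channels. Of 37 listed genes, 34 were tested and none passed an adjusted p of 0.05 by edgeR in any comparison. At an unadjusted p under 0.05 there were 6 in WT (1 higher, 5 lower), which is 17.6% of the list against 9.84% of all genes. There were 0 in KO (0%, against 4.58%) and 7 for the average (1 higher, 6 lower; 20.6%, against 10.9%). The lower ones in the average were Ano1, Cacna2d1, Cacnb3, Fxyd1, Ryr2 and Ryr3, and the higher one was Piezo1. Ryr2, the calcium release channel whose sparks open BK channels in arteries, had 94.5, 89.4 and 137 CPM in WT nicotine against 125, 202 and 203 in WT air (−0.72 ± 0.23, adjusted p 0.345 by edgeR). The KO nicotine values were 143, 109 and 167 CPM against 154, 193 and 140 in KO air, which overlap.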

How the data were processed

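RNA of mouse thoracic aorta was sequenced in 12 SMART-Seq v4 libraries, per the labels' protocols. The authors deposited raw counts per gene symbol, made with HTSeq on build mm9 per the submitters' processing notes. Aligner, annotation and strand setting: not given in the sources used here. The authors also deposited, per genotype, a table with log2 fold changes and their standard errors, a test score, and p-values with adjusted p-values.

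Counts were fitted with edgeR 4.0.16 (filterByExpr, TMM, robust quasi-likelihood, 4 group means, 8 residual degrees of freedom) over 14621 genes, with Benjamini-Hochberg adjustment and a threshold of 0.05. A standard error is the size of the log2 fold change divided by the root of its F statistic. CPM are TMM-scaled. Marker scores are mean log2 CPM with a prior count of 2. Permuting 3 libraries against 3 cannot give a two-sided p below 0.1, so no exact test was used. As the labels do not say that libraries are separate mice, p-values reflect library spread, which may be partly technical. Pairs of libraries within groups differed by a chi-square per degree of freedom of 8.79 to 74.8, so none was counted as a repeat. KO libraries carry numbers 1 to 5 and 7, WT libraries 6 and 8 to 12, and no batch is labelled. Within genotype the numbers also run in blocks by exposure, with 3, 4 and 5 in KO nicotine and 8, 9 and 10 in WT air. If the numbers follow handling, that cannot be told apart from genotype, nor fully from exposure.

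Named members are a list of vascular channel genes, the 10 highest per kilobase, and per comparison those called and the 3 smallest p in each direction. Values of 2 members are not reported here. Others named were chosen after their values were seen. Members and lists were chosen with earlier results of these data known. Alternatives were DESeq2 1.42.0, limma 3.58.1 voom, other size factors, no filter, only the groups compared, marker scores as covariates and leaving out each library. The procedure was tested on simulated counts. Sequences and exon lengths come from GENCODE M21 with no coordinates converted. Tests ran in R 4.3.3 and tables and plots in Python 3.11.15 with matplotlib 3.10.9, pandas 2.3.3 and numpy 2.4.6.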

Additional observations from a re-analysis of the deposited data

How the results depend on the processing

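The count of members past an adjusted p of 0.05 was 0 in 118 of 120 alternative fits. For nicotine averaged over genotypes, DESeq2 called 2 members (Kcnj8 lower and Kcnk5 higher), and leaving out each library in turn gave 0 to 1, the 1 being Kcnj8 without WT air 8. Over all genes, DESeq2 called 115 for nicotine in WT, 96 for nicotine averaged over genotypes and 87 for KO against WT under nicotine, where edgeR called 3, 0 and 1. The median log2 fold change of the members ran from −0.20 to −0.01 for nicotine in KO, −0.12 to 0.10 for KO against WT under nicotine, and −0.17 to 0.14 for the interaction when libraries were left out in turn, with the ends set by KO nicotine 3 or 5. In the same fits the median ran from −0.20 to 0.02 for nicotine in WT. It ran from −0.15 to 0.02 for nicotine averaged over genotypes, so the sign of both medians depended on single libraries. Of the members named for their small p, 1 value changed sign in the comparison they were named in: Kcnk5 for nicotine in KO was −0.11 with the skeletal muscle score as a covariate, where it was 0.85 without it. Other members also changed sign with the smooth muscle score for nicotine averaged over genotypes, among them Kcnk3 at −0.15 (0.67 without the score), Kcnma1 at 0.05 (−0.32 without) and Kcnq5 at 0.22 (−0.40 without), and the cause was not tested. The first 10 members by CPM shared 7 with the first 10 per kilobase. The brown adipocyte covariate was added after the data were seen. No paired analysis was possible because the groups share no library numbers. Depth limits the scarce members most: 49 had at most 96 counts over all libraries and were not tested, and Kcnk5, Kcnj11 and Kcnj12 rest on 4 to 59 counts per library.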
